A study of Mus musculus with 9 samples.

Results

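SOX6 occupancy in oligodendrocytes (OLs) made from the mouse epiblast stem cell line EpiSC5 was set against SOX6 occupancy in oligodendrocyte progenitor cells (OPCs) of the same line. The regions described are the 3858 SOX6 peaks that the EpiSC5 OL library holds on chromosomes 1 to 19 and the 15166 that the EpiSC5 OPC library holds there, out of 165767 peaks in 7 lists and 42322 SOX6 peaks in 3. They were taken by library and chromosome alone. An OPC peak was called kept where an OL peak overlapped it by 1 bp or more and lost otherwise, and an OL peak was called shared or new in the same way. The 22320 SOX6 peaks of OPCs from a second line, 129O1, served as another OPC list. The measurements are chromatin immunoprecipitation followed by sequencing (ChIP-seq), which the study used for SOX6 and for the acetylated histone mark H3K27ac.

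The OLs were EpiSC5 cells positive for the surface lipid O1, a marker of OLs, and were collected on a magnetic sorter. EpiSC5 comes from mouse strain 129SvEv. The EpiSC5 OPCs and the 129O1 OPCs, from 129S1/SvImJ, had been sorted for CD140a and NG2 and grown in bFGF and PDGFA without SHH. The labels name no mutation, transgene or drug in any group. No source used here says whether a line is 1 clone or which medium the OLs matured in. Each group is 1 library, so no difference has a replicate check and none was tested. The 95% Wilson intervals cover counting error only, and the peak lists carry no read counts, so depth is unknown. In a list of peaks from bulk cells, fewer cells with SOX6 at a site and less SOX6 per cell cannot be told apart.

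SOX6 belongs to the SoxD branch of the SOX transcription factors, which bind DNA through an HMG box and carry no activation domain of their own. In the spinal cord of mice, SOX5 and SOX6 are expressed in OPCs, hold back their differentiation and decline as the cells mature. Many SOX factors recognise sequences close to ACAAT or ACAAAG, and SoxD proteins often bind as dimers.

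The sequences around start sites are given first because the kept and new promoters differed from the lost ones in their letters. Each is a 300-base RefSeq window of build GRCm38.p6, with 250 bases before the start site and 50 after it, written 5′ to 3′ on the gene's strand. Capitals mark, on either strand, the SOX sequence ACAAT, its relative written ACAAAG, and a further sequence, CCGGAAG. The last is the core recognised by many ETS factors and was added to the search after the windows had been read. The windows were picked, after their values were seen, from the 6 strongest of each class, and those with the sequences of interest were preferred. Of each 6, CCGGAAG was in 5 kept windows, 3 of them identical to each other, in 3 new windows and in 0 lost ones. Fam172a (chr13:77708440-77708739, + strand) and Man2b2 (chr5:36830600-36830899, − strand) held kept peaks, Cdk9 (chr2:32712735-32713034, − strand) and BC048403 (chr10:121739680-121739979, + strand) held new OL peaks, and Zc3h12c (chr9:52149314-52149613, − strand) and Dll1 (chr17:15376883-15377182, − strand) held lost OPC peaks.
Fam172a, kept: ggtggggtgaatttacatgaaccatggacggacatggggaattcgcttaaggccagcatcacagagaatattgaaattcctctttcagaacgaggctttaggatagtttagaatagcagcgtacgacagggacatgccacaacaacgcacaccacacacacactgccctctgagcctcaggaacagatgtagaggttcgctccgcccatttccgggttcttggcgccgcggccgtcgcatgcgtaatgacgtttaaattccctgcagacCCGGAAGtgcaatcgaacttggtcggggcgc
Man2b2, kept: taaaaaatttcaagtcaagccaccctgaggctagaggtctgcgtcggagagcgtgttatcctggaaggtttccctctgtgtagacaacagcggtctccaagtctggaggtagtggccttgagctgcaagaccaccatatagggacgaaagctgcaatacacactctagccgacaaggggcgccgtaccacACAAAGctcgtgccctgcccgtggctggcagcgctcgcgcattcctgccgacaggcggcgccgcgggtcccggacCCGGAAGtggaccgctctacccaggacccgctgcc
Cdk9, new in OL: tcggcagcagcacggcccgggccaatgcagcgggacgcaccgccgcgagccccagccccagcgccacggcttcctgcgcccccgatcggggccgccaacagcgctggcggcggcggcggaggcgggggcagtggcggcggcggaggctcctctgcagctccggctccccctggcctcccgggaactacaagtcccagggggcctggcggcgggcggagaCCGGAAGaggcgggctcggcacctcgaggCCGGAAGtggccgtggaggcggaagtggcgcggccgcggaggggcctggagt
BC048403, new in OL: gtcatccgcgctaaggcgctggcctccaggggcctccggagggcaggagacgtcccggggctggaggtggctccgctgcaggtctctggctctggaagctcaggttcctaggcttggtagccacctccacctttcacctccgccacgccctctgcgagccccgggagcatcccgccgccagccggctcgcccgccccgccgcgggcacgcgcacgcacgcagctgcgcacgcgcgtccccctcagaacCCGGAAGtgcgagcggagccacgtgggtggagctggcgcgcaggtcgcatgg
Zc3h12c, lost: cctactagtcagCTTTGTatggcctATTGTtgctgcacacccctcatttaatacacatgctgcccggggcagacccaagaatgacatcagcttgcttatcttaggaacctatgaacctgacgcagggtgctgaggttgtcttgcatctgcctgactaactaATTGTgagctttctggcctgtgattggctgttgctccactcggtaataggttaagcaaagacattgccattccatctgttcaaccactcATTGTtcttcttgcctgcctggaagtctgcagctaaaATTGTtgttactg
Dll1, lost: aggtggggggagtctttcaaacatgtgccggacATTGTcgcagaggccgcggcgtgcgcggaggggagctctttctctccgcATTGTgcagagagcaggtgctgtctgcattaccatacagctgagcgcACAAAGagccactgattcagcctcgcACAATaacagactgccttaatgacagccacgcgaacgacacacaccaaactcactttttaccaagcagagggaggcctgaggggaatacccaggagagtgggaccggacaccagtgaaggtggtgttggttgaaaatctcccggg
Of the windows shown, Zc3h12c had 4 copies of ACAAT and 1 of ACAAAG, and Dll1, which encodes a Notch ligand, had 3 and 1. Neither had CCGGAAG. Fam172a, Man2b2 and BC048403 had 1 copy of CCGGAAG each and Cdk9, the kinase of the transcription elongation complex P-TEFb, had 2. Man2b2 alone of these 4 had a SOX sequence, a single ACAAAG.

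The same contrast held over all windows that contain a summit. CCGGAAG was present in 62.0% of 511 kept windows and 58.1% of 618 new ones, against 16.9% of 569 lost windows and 11.9% of all 20084 windows of protein-coding genes. ACAAT ran the other way, with 25.2% of kept and 13.4% of new windows, against 39.0% of lost and 26.8% of all windows. ACAAAG was found in 13.3% of kept and 9.06% of new windows, against 24.96% of lost and 16.6% of all. The E-box CAGCTG, a site for basic helix-loop-helix factors such as OLIG2, was found in 10.96% of kept and 13.6% of new windows, against 19.2% of lost and 15.6% of all. Both strands were searched. ACAAT shares its opening letters with ACAAAG, but 1 stretch cannot match both, and CAGCTG reads the same on both strands.

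The median GC content of the windows was 62.7% for kept, 64.8% for new, 58.7% for lost and 57.0% for all. Within windows of 55 to 65% GC, CCGGAAG was in 66.9% of kept and 62.6% of new windows, against 21.3% of lost and 17.2% of all. In the same band ACAAT was in 26.5% of kept and 15.7% of new windows, against 35.3% of lost and 18.6% of all. Kept windows thus held ACAAT more often than all windows of the same band at 55% GC or more, though not over all bands together. The shares were 17.3% of kept and 8.53% of all at 65% or more. Under 55% GC they were close, with 45.3% of 64 kept windows and 43.3% of all. New windows held ACAAT less often than all windows in each band, with 29.1% under 55% GC and 7.77% at 65% or more. The higher share of CAGCTG in lost windows was not seen in every band. Lost windows held it in 24.6% of cases under 55% GC, against 14.6% of all windows, but in 16.3% at 55 to 65%, against 17.9%. At 65% or more the shares were 14.4% of kept, 14.2% of new, 17.0% of lost and 14.6% of all windows.

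The summits also lay at different letters. Where a window held CCGGAAG, the OL summit was a median of 17 bp from its nearest copy at kept sites (317 windows) and 18 bp at new sites (359 windows), with 79.2% and 81.3% within 50 bp. The summits of lost OPC peaks were a median of 45.5 bp from that sequence in the 96 lost windows that held it. They were nearer to ACAAAG, at a median of 32 bp in 142 windows, and to ACAAT, at 41.5 bp in 222 windows. OL summits were 103 bp from ACAAT at kept sites and 138 bp at new sites. A match is a description of the letters and not of the factor that bound. Peaks away from start sites were not searched, since no genome sequence was used here.

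The second OPC list shared the sequence in part. Among windows with a 129O1 OPC summit, 38.7% of 2197 held CCGGAAG. New OL windows held it in 205 of the 338 that 129O1 OPCs also bound (60.7%) and in 154 of the 280 that neither OPC list bound. Peaks at start sites were a larger part of the 129O1 than of the EpiSC5 OPC list, with 17.5% of peaks within 1 kb of a start against 13.7%.

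Most OPC occupancy was absent from the OL list. Of the 15166 EpiSC5 OPC peaks, 1480 were kept (9.76%, interval 9.30 to 10.2%) and 13686 were lost. Of the lost peaks, 12263 (89.6%) were present in 129O1 OPCs, against 90.3% of all EpiSC5 OPC peaks and 96.8% of the kept ones. Of the 3858 OL peaks, 1491 (38.6%, interval 37.1 to 40.2%) overlapped an EpiSC5 OPC peak and 2367 were new. A further 636 of the new peaks lay at 129O1 OPC peaks, and 1731 OL peaks (44.9%) were in neither OPC list.

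The OL list was 25.4% as long as the EpiSC5 OPC list. When the 129O1 OPC list was shortened to the same 3858 peaks by its own −log10 q, the peak caller's measure of confidence, 99.1% of what remained lay at EpiSC5 OPC peaks. The OL list gave 38.6%, but it was used whole, while the cut list kept only the most confident 129O1 peaks. The lists are thus of like length and not of like confidence. Of the 100 OL peaks with the highest −log10 q, 71 lay at EpiSC5 OPC peaks. OL peaks were narrower, with a median width of 245 bp against 309 bp in EpiSC5 OPCs, and less confident, with a median −log10 q of 10.6 against 20.0. The authors' fold enrichment had medians of 5.08 in OLs and 5.01 in EpiSC5 OPCs. At shared sites the OL and OPC summits were a median of 40 bp apart and 80.3% were within 100 bp, which the overlap that defines these sites in part sets.

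Confidence in OPCs ranked the kept peaks weakly. With the OPC list split by −log10 q into 10 groups of like size, between 7.78% and 11.2% were kept in the lower 9 groups and 16.5% in the highest. Of the 100 OPC peaks with the highest values, 45 were kept in OLs and all 100 were in 129O1 OPCs. In the other direction, the share of OL peaks that overlapped an EpiSC5 OPC peak was 25.4% in the lowest of 10 such groups of OL peaks and 60.4% in the highest.

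**Figure D1:**
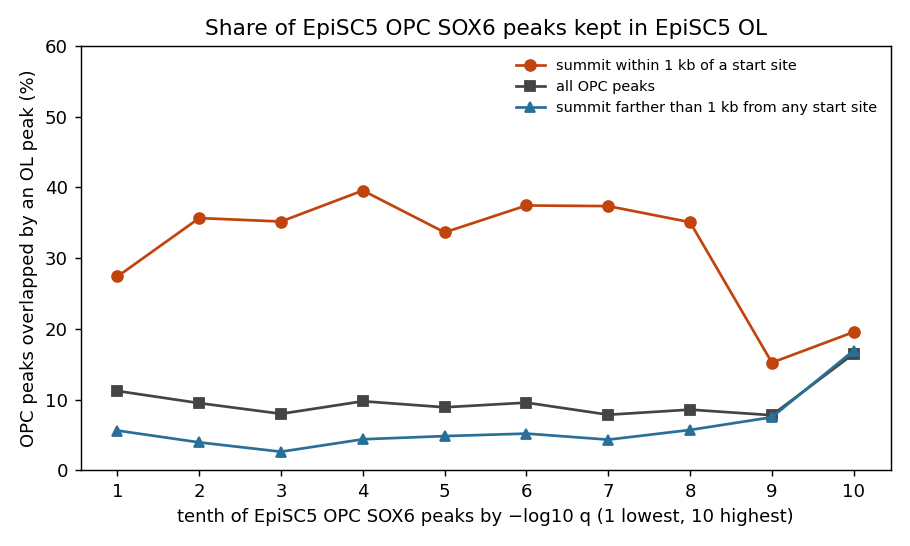
Share of EpiSC5 OPC SOX6 peaks overlapped by an EpiSC5 OL peak (percent, vertical axis) in each of 10 groups of the OPC list by −log10 q (horizontal axis, lowest to highest), for peaks with a summit within 1 kb of a start site, all peaks and peaks farther away. Peaks near start sites were kept at 27.4% to 39.6% in the lower 8 groups and at 15.2% and 19.5% in the highest 2, and peaks away from starts at 2.62% to 7.50% in the lower 9 groups and 16.9% in the highest.

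Peaks near start sites were kept more often than those farther away, except that the gap was small among the most confident peaks. Of OPC peaks with a summit within 1 kb of a start site, 657 of 1994 were kept (32.9%, interval 30.9 to 35.0%), against 781 of 12549 farther away (6.22%, interval 5.81 to 6.66%). In the highest 2 of the 10 groups by −log10 q, 15.2% and 19.5% of peaks near starts were kept, against 7.50% and 16.9% of those farther away. In all, 42.6% of OL peaks lay within 1 kb of a start, against 13.7% of EpiSC5 OPC peaks. That share was 40.9% among new OL peaks and 10.2% among lost OPC peaks. New OL peaks that 129O1 OPCs also bound were within 1 kb of a start in 69.3% of cases, and those in neither OPC list in 30.3%. By gene, 9.77% of the 16456 genes with a start site in the table had an OL summit within 1 kb of an own start and 10.2% had an EpiSC5 OPC summit there. Of the 1608 OL genes, 737 were also among the 1672 OPC genes, which is 45.8% of the OL genes and 44.1% of the OPC genes. Start sites of chromosome 18 were not analysed here. On chromosomes 1 to 19, 16456 of the 20661 protein-coding genes had a start site in the table. Peaks at unlisted starts on the other chromosomes thus count as farther away. An OL peak 22 bp from Ndufb9 was 312428 bp from the nearest listed start.

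The strongest OL peak lay in Cacng4 (chr11:107784118-107785422), which encodes a subunit that modulates AMPA receptors, with a −log10 q of 239 and a fold enrichment of 23.2. It and a peak in the activin receptor gene Acvr1b (chr15:101196168-101196692), with a −log10 q of 142, were in all 3 SOX6 lists and in none of the 4 H3K27ac lists. A promoter sequence present in 3 copies followed among the strongest kept sites. The windows of Tcte3, Gm3448 and Gm3417 on chromosome 17 are identical over all 300 bases, so reads from them cannot be told apart and their values are uncertain. Among new peaks, the highest −log10 q, 92.7, was at a peak 124354 bp from Fgf14. A 2413 bp peak in Bcas1 (chr2:170350554-170352966) had 92.3, a peak 7603 bp from Tmem196 had 89.6, and a peak 197 bp from the start of Tmem117 had 85.2. The peaks named by Fgf14 and Tmem196 lay beyond the last protein-coding gene of their chromosomes. Their fold enrichments were 4.12 and 4.04, against 18.4 at the Bcas1 peak.

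The 6 most confident OPC peaks that were kept were a site 2578 bp from Sox21, with a −log10 q of 426 in OPCs, a site 100419 bp from Stmnd1 (395), and sites in Nkx2-2, a homeobox factor needed for OL differentiation (338), in the RNA demethylase gene Fto (340), 31118 bp from Noxa1 (329) and 33508 bp from Klf9, a thyroid hormone target (327). The most confident lost peaks lay in Tcf12, the partner of OLIG proteins (chr9:71897242-71898032, −log10 q 339 in OPCs), 32407 bp from Kbtbd8 (330), far from Pappa (323), in the TGF-β co-receptor gene Tgfbr3 (299) and 159233 bp from Nfia (293). All 5 were also 129O1 OPC peaks.

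H3K27ac was not used to choose the peaks, and it differed between the classes. Kept peaks overlapped an EpiSC5 OL H3K27ac peak in 91.8% of cases and an EpiSC5 OPC one in 85.0%. Lost peaks overlapped H3K27ac in 52.1% of cases in OLs and 66.3% in OPCs, and new peaks in 63.8% in OLs and 52.6% in OPCs. OPC peaks were kept in 17.0% of cases where H3K27ac was present in both states and in 11.2% where it was present in OLs alone. The share was 2.01% where H3K27ac was present in OPCs alone and 1.64% where it was present in neither.

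The shares were also higher with OL acetylation away from the listed start sites. That group can include peaks at starts missing from the table, so it is not free of promoters. Farther than 1 kb from a start, the kept shares were 10.8% of 5154 peaks with H3K27ac in both states, 11.2% of 1387 with it in OLs alone, 0.895% of 2905 with it in OPCs alone and 1.32% of 3103 with it in neither. Among new OL peaks the 2 kinds of place differed. Near starts 92.0% overlapped H3K27ac of EpiSC5 OLs and 95.5% that of EpiSC5 OPCs, while away from starts 44.2% overlapped it in OLs and 23.9% in OPCs.

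**Figure D2:**
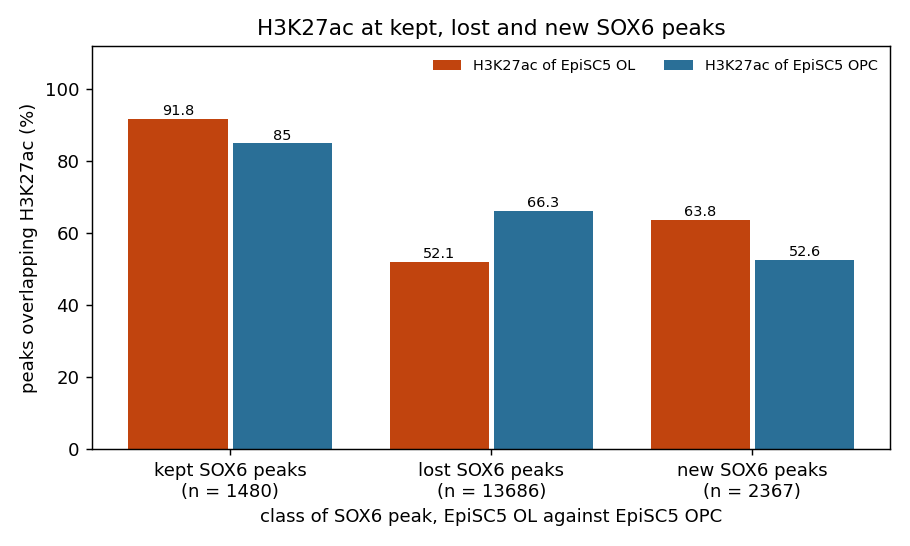
Share of SOX6 peaks that overlap an H3K27ac peak by 1 bp or more (percent, vertical axis, starting at 0) for 1480 kept, 13686 lost and 2367 new peaks (horizontal axis), with H3K27ac of EpiSC5 OLs in red-orange, left, and of EpiSC5 OPCs in blue, right. Kept peaks are acetylated most often in both states, lost peaks more often in OPCs (66.3%) than in OLs (52.1%), and new peaks more often in OLs (63.8%) than in OPCs (52.6%).

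The labelled states were checked with H3K27ac, as covered kb over the gene body plus 10 kb each side. Of 32 myelin genes 24 were covered over a longer stretch in EpiSC5 OLs than in EpiSC5 OPCs, against 28.7% of all genes, with 37.6 kb in OLs and 4.32 kb in OPCs at Mbp, myelin basic protein. Of 30 OPC genes 23 were covered over a shorter stretch in OLs, against 42.2% of all genes, with 1.54 kb in OLs and 13.1 kb in OPCs at Pdgfra, the PDGF receptor, although Tnr of the same list had 113.9 kb in OLs and 11.2 kb in OPCs. Summed H3K27ac over markers of other cells was 49.3 kb in OLs and 55.4 kb in OPCs for 14 astrocyte genes, 29.2 and 51.3 kb for 15 neuron genes, 8.55 and 16.4 kb for 12 microglia genes, 2.47 and 8.46 kb for 14 pluripotency genes and 35.3 and 20.2 kb for 11 Schwann cell genes, with 25.6 and 6.16 kb at Mitf alone. C1qa, Cx3cr1, Stmn2, Foxd3 and Dppa3 had none in either state. The part of other cells in the SOX6 differences was not tested.

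SOX6-covered length was summed in kb over the body of each of 20661 protein-coding genes plus 10 kb each side. In OLs 3536 genes held SOX6, with a median of 0.260 kb, and in EpiSC5 OPCs 6966 did, with a median of 0.397 kb. Of the genes with SOX6 in OPCs, 2351 (33.7%) also held some in OLs. A further 4615 genes, 22.3% of all, held it in OPCs and not in OLs, and 4372 of these held it in 129O1 OPCs. A smaller group of 1185 genes, 5.74% of all, held it in OLs and not in EpiSC5 OPCs, and 696 of them held it in 129O1 OPCs.

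Changes were mostly towards shorter coverage. On the scale of log2(kb + 0.5), which understates changes of genes with little coverage, 2031 genes (9.83%) were at least 2-fold shorter in OLs and 111 (0.537%) at least 2-fold longer. Coverage was longer in OLs at 1834 genes (8.88%). The balance depended on the length of the lists: with the OPC list cut to the OL length, 1454 genes held SOX6 in OPCs and not in OLs and 2767 in OLs and not in OPCs, and with each list scaled to an equal total 3229 genes were longer in OLs. With 0.1 kb added in place of 0.5 kb, 5297 genes were 2-fold shorter in OLs and 1269 longer. Of the 111 genes, 73.9% also had a longer H3K27ac stretch in EpiSC5 OLs than in EpiSC5 OPCs, against 28.7% of all genes and 45.7% of the 2031 genes. All genes include many without SOX6 in either state. The share was 51.5% of genes with SOX6 in both states and 45.7% of genes with it in OLs and not in EpiSC5 OPCs. The genes that were 2-fold shorter were long, with a median of 102.9 kb, against 18.5 kb for those 2-fold longer and 17.5 kb for all.

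**Figure D3:**
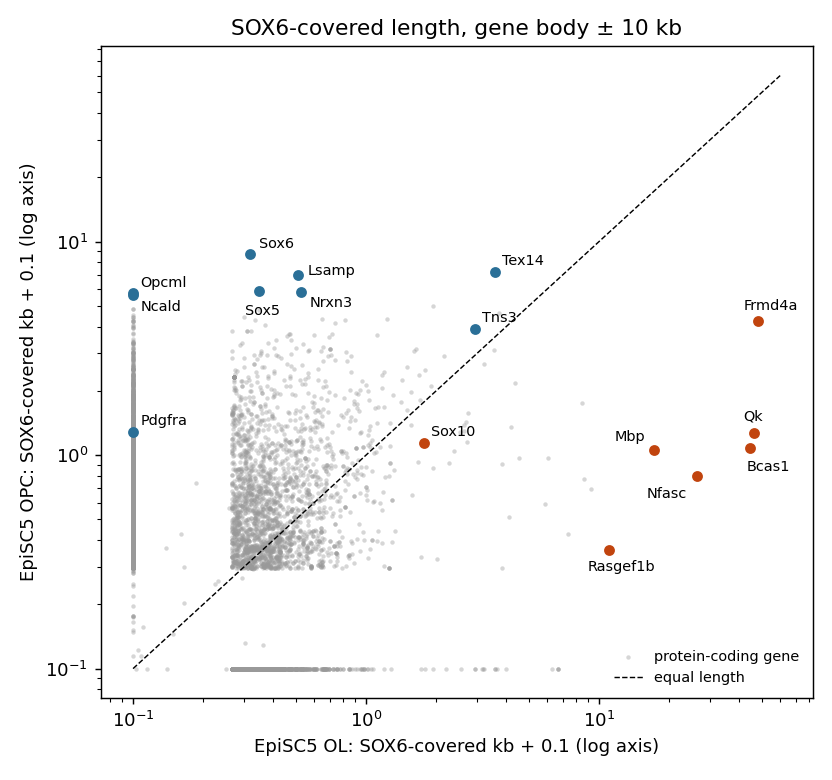
SOX6-covered length of each protein-coding gene with SOX6 in EpiSC5 OLs (horizontal axis) or EpiSC5 OPCs (vertical axis), in kb plus 0.1 on log axes; the dashed line marks equal length. Frmd4a, Qk, Bcas1, Nfasc, Mbp and Rasgef1b lie far to the right of it, and Sox6, Sox5, Lsamp, Nrxn3, Opcml and Ncald far above it.

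Long runs of OL peaks lay over a few genes that had far less coverage in EpiSC5 OPCs. Frmd4a, a scaffold protein gene, had 48.3 kb of SOX6 in OLs, against 4.15 kb in EpiSC5 OPCs and 5.99 kb in 129O1 OPCs. Qk, which encodes an RNA-binding protein that regulates myelin transcripts, had 46.3 kb in OLs, against 1.17 and 7.60 kb in the 2 OPC lists. Bcas1, a marker of newly formed OLs, had 44.4 kb in OLs, against 0.980 and 1.59 kb. Each of the OL values is several times the longest coverage of any gene in EpiSC5 OPCs, 8.68 kb.

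Nfasc and Mbp followed. Nfasc, which encodes the adhesion protein neurofascin, had 26.3 kb in OLs, against 0.696 kb in EpiSC5 OPCs and 2.06 kb in 129O1 OPCs. Mbp had 17.2 kb in OLs, against 0.959 and 0.639 kb. The runs consisted of many peaks, 151 at Frmd4a, 92 at Qk, 55 at Bcas1, 64 at Nfasc and 23 at Mbp, against 12, 4, 2, 2 and 3 in EpiSC5 OPCs. Their median widths were 270, 332.5, 503, 265 and 362 bp, against 245 bp over the OL list. Together the windows of these 5 genes held 385 OL peaks (9.98% of the list) and 15.8% of all OL-covered bases, against 0.151% of the EpiSC5 OPC-covered bases. Of the 59 OL peaks wider than 1 kb, 34 lay in these 5 windows.

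At Qk, Nfasc and Frmd4a, whose strand is known, no OL coverage lay in the 20 kb before the start. Within the gene it was longest in the middle part at Qk and Frmd4a and in the last part at Nfasc. At Qk, SOX6 covered 0 kb of the 20 kb before the start, 7.43, 20.2 and 9.10 kb of the first, middle and last of 3 equal parts of the gene, and 19.2 of the 20 kb after its annotated end. The 129O1 OPC list held 5.77 kb in that last stretch and the EpiSC5 OPC list 0.743 kb. At Nfasc the 3 parts held 3.67, 5.08 and 16.1 kb in OLs, and H3K27ac of OLs lay the other way, with 36.3, 11.9 and 1.84 kb. At Frmd4a they held 0.175, 26.6 and 17.7 kb, and 3.75 kb lay in the 20 kb past the end.

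Most peaks of the runs at 4 of the 5 genes lay outside H3K27ac. An EpiSC5 OL H3K27ac peak overlapped 15.9% of the OL SOX6 peaks at Frmd4a, 39.1% at Qk, 14.5% at Bcas1, 14.1% at Nfasc and 52.2% at Mbp. Nearly all of these peaks were new, and the share was 63.8% over all new peaks and 44.2% over new peaks away from starts, so Qk and Mbp lay nearer to these values than the other 3 genes. H3K27ac itself was longer in OLs at all 5 genes, with 65.8 kb against 25.4 kb in EpiSC5 OPCs at Frmd4a and 52.9 kb against 2.81 kb at Nfasc.

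**Figure D4:**
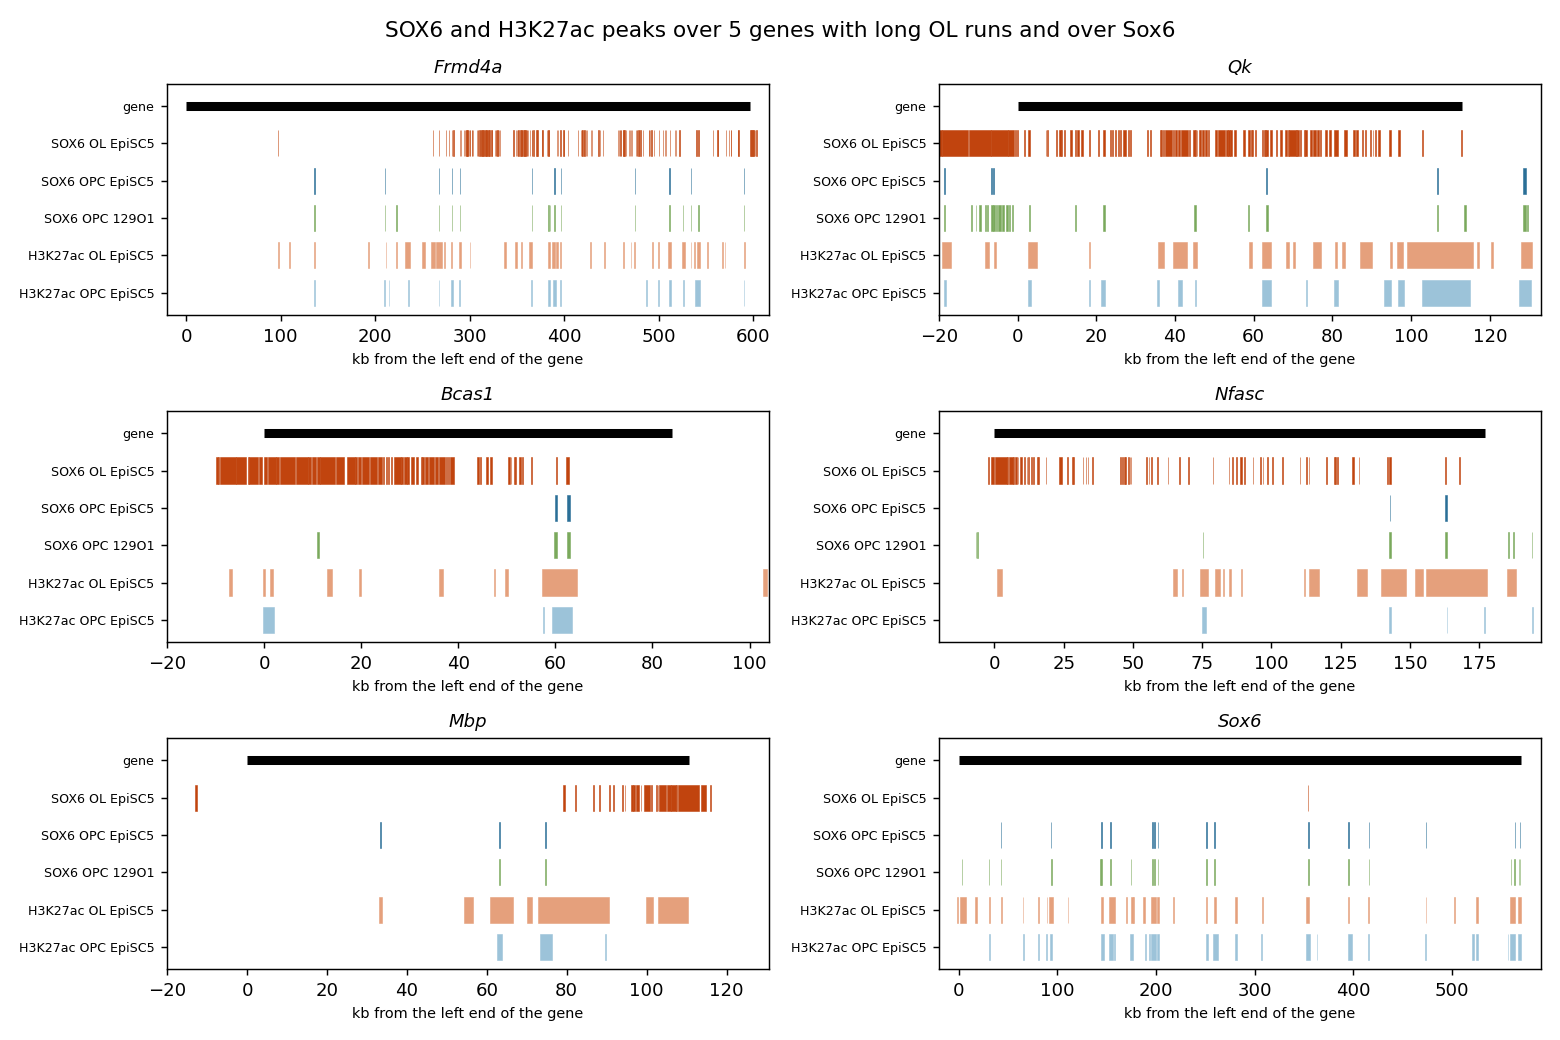
Peaks of EpiSC5 OL SOX6, EpiSC5 OPC SOX6, 129O1 OPC SOX6, EpiSC5 OL H3K27ac and EpiSC5 OPC H3K27ac (rows, from the top) over 5 genes with long OL runs and over Sox6, with the gene as a black bar and distance in kb from its left end on the horizontal axis. OL SOX6 peaks crowd over Frmd4a, Qk, Bcas1, Nfasc and Mbp and run past at least 1 end of each gene, while Sox6 has 1 OL peak against 15 EpiSC5 OPC peaks.

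Shorter runs were seen over other genes. Rasgef1b, a guanine nucleotide exchange factor gene, had 11.001 kb in OLs, against 0.261 kb in EpiSC5 OPCs and 0.610 kb in 129O1 OPCs. The neighbours Fkbp15 and Slc31a2 had 9.19 and 8.52 kb in OLs, against 0.593 and 0.669 kb in EpiSC5 OPCs, and share peaks within 10 kb. Chn2, which encodes a Rac-inactivating protein, had 8.38 kb in OLs, against 1.66 and 2.12 kb in the 2 OPC lists, and Fam13c had 7.27 kb, against 0.325 and 0.580 kb. Mink1, Chrne and 4930544D05Rik share 13 OL peaks and had 6.60 kb in OLs and none in EpiSC5 OPCs. In all 17 genes held 10 or more OL peaks and 41 held 10 or more EpiSC5 OPC peaks, and 3 genes, Frmd4a, Trio and Tns3, did both.

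SOX6 on its own gene and on its close relative Sox5 was nearly absent in OLs. Sox6 (chr7:115470872-116040776) had the longest coverage of any gene in EpiSC5 OPCs. It held 0.218 kb in OLs, against 8.68 kb in EpiSC5 OPCs and 11.8 kb in 129O1 OPCs. Its H3K27ac was 61.2 kb in OLs and 57.2 kb in EpiSC5 OPCs, and was not shorter in OLs. Sox5 held 0.248 kb in OLs, against 5.75 and 8.42 kb in the OPC lists.

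The 10 genes with the longest OPC coverage and none in OLs included genes of neuronal adhesion, calcium sensing and Notch signalling. Opcml, an opioid-binding adhesion protein gene, had none in OLs, against 5.67 kb in EpiSC5 OPCs and 7.70 kb in 129O1 OPCs. Ncald, a neuronal calcium sensor gene, had none in OLs, against 5.55 and 10.3 kb. Maml2, a Notch coactivator, had none, against 4.76 and 5.98 kb. Myo10, Npas3, Cdkal1, Auts2, Dennd1a, Arhgap26 and Map2 completed the 10, with 4.16 to 4.75 kb in EpiSC5 OPCs, none in OLs and 4.59 to 7.21 kb in 129O1 OPCs. H3K27ac did not follow at all of them. Opcml had 80.01 kb of H3K27ac in OLs and 19.8 kb in EpiSC5 OPCs, while Map2 had 9.09 kb in OLs and 31.0 kb in EpiSC5 OPCs.

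The gene lists differed in how many members held SOX6 in OLs, to be read against 33.7% of all genes with SOX6 in OPCs. The shares given over all genes include 12510 genes with SOX6 in neither state, which can be neither longer nor shorter. Of the 8151 genes with SOX6 in either state, 1834 were longer in OLs and 2031 at least 2-fold shorter. Of 21 immature OL genes with SOX6 in OPCs, 17 held it in OLs, and 10 of the 25 measured members were longer in OLs. The lists were chosen with earlier results of these data known. Frmd4a, Bcas1, Nfasc and Chn2 of this list are among the 10 genes with the longest OL coverage, so its share is no independent result. Its members were also long, with a median of 83.9 kb, against 17.5 kb for all genes. Of the 1742 genes with the longest OPC coverage, 40.9% held SOX6 in OLs. Beside Frmd4a, Bcas1 and Nfasc, Fyn, a kinase of OL differentiation, had 2.07 kb in OLs and 2.82 kb in EpiSC5 OPCs, and Tns3, an adhesion protein of differentiating OLs, had 2.85 kb in OLs and 3.80 kb in OPCs. Enpp6, a choline phosphodiesterase of newly formed OLs, had 0.816 kb in OLs and 0.727 kb in OPCs. Tcf7l2, a Wnt effector, had 0.839 kb in OLs and 1.92 kb in OPCs.

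**Figure D5:**
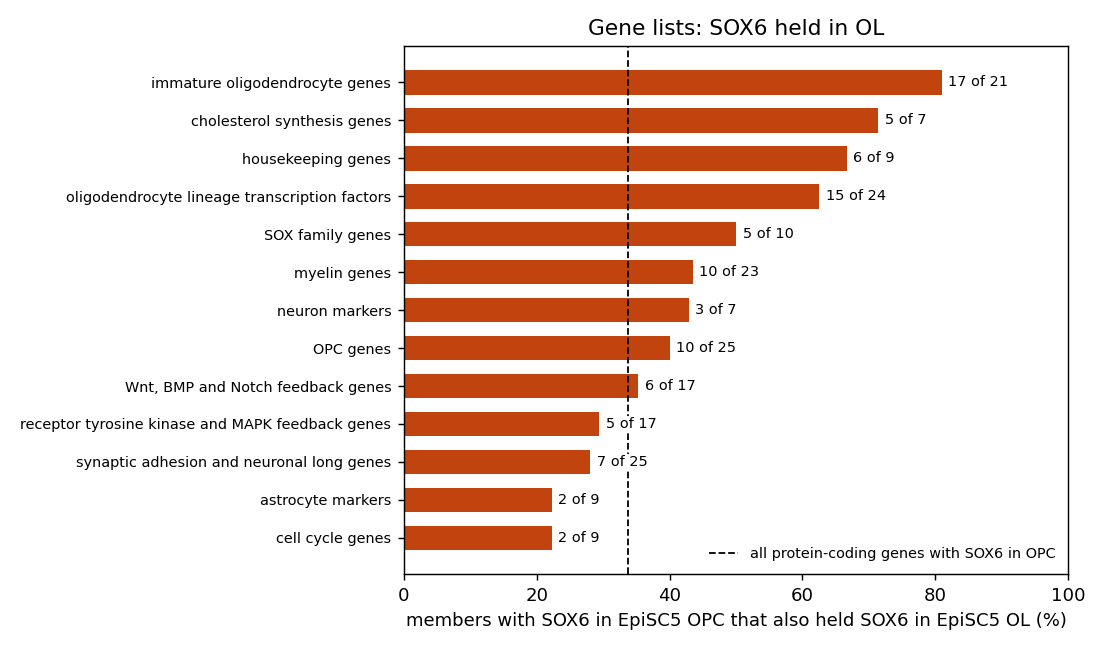
Percentage of list members with SOX6 in EpiSC5 OPCs that also held SOX6 in EpiSC5 OLs (horizontal axis, starting at 0) for the 13 lists with at least 5 such members, with the counts beside the bars. The dashed line is the share over all protein-coding genes with SOX6 in OPCs, 33.7%. The immature OL list is highest with 17 of 21 and the cell cycle and astrocyte lists lowest with 2 of 9 each. The lists were chosen with earlier results of these data known.

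Myelin genes as a group held SOX6 in OLs at a share near the background. Of 23 with SOX6 in OPCs 10 held it in OLs, and the median of 32 members was 0 kb in OLs and 0.386 kb in EpiSC5 OPCs. At least 2-fold shorter in OLs were 7 of the 32, against 9.83% of all genes and 2031 of the 8151 genes with SOX6 in either state. At least 2-fold longer were 2, against 0.537% of all genes. Coverage was longer in OLs at 4 of the 32 members, against 8.88% of all genes and 1834 of the 8151 genes with SOX6 in either state. Beside Mbp these were Ppp1r16b, a phosphatase regulator gene, with 4.27 kb in OLs and 2.08 kb in OPCs, Gjc3, a connexin gene, with 3.76 kb in OLs and 0.809 kb in OPCs, and Tmem125, with 0.332 kb in OLs and none in either OPC list. Mog, Cldn11 and Mobp, which encode myelin proteins, held none in OLs and 0.385, 1.03 and 0.298 kb in EpiSC5 OPCs. Myrf, the regulator of myelin genes, had 0.430 kb in OLs and 0.967 kb in OPCs.

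OPC genes and signalling genes held SOX6 in OLs at shares near the background. Of 25 OPC genes with SOX6 in OPCs 10 held it in OLs. At least 2-fold shorter were 16 of 30, against 9.83% of all genes and 2031 of the 8151 genes with SOX6 in either state. Pdgfra and Cspg4, the genes of the 2 sorting markers, held none in OLs and 1.18 and 1.47 kb in EpiSC5 OPCs. Hes5, a Notch target, went the other way with 4.44 kb in OLs and 0.873 kb in EpiSC5 OPCs, but had 6.32 kb in 129O1 OPCs. Pank4, also on chromosome 4, had the same values in both OPC lists and 5.93 kb in OLs, so this coverage may not be particular to Hes5. Of 17 feedback genes of receptor tyrosine kinases and MAPK 5 held SOX6 in OLs, with none in OLs against 1.13 kb in OPCs at the phosphatase gene Dusp6 and 2.91 kb at the immediate early gene Egr1. Of 17 Wnt, BMP and Notch genes 6 held it. The Notch ligand gene Dll1 had none in OLs and 1.78 kb in OPCs.

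Of 24 lineage transcription factor genes with SOX6 in OPCs 15 held some in OLs, not always at the same sites. Coverage was longer in OLs at 5 of 27, against 8.88% of all genes and 1834 of the 8151 genes with SOX6 in either state. It was at least 2-fold shorter at 12 of 27, against 9.83% of all genes and 2031 of those 8151. Of the 27, 3 held SOX6 in neither state. Sox10, the SoxE factor that drives myelination, had 1.67 kb in OLs, against 1.04 kb in EpiSC5 OPCs and 1.15 kb in 129O1 OPCs. Olig2 had 1.03 kb in OLs and 1.58 kb in EpiSC5 OPCs, while its neighbour Olig1 had none in OLs and 1.81 kb in OPCs. Tcf12 had 0.209 kb in OLs and 3.71 kb in OPCs, and Sox8 had none and 2.02 kb. Of 10 SOX family genes 5 held SOX6.

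Long synaptic genes had shorter coverage in OLs at nearly every member. Of 25 with SOX6 in EpiSC5 OPCs 7 held it in OLs, and none of 27 was longer in OLs, against 8.88% of all genes. At least 2-fold shorter were 23, against 9.83% of all genes and 2031 of the 8151 genes with SOX6 in either state. Their summed coverage was 2.71 kb in OLs, 62.0 kb in EpiSC5 OPCs and 107.4 kb in 129O1 OPCs. Lsamp, the limbic adhesion protein gene, had 0.412 kb in OLs and 6.86 kb in EpiSC5 OPCs, and the neurexin gene Nrxn3 had 0.426 and 5.70 kb. Their median length was 965.5 kb, against 17.5 kb for all genes. Among the small lists, SOX6 was held in OLs at 5 of 7 cholesterol synthesis genes, 6 of 9 housekeeping genes, 2 of 9 cell cycle genes, 2 of 9 astrocyte, 3 of 7 neuron, 0 of 3 microglia, 1 of 2 Schwann cell and 0 of 1 pluripotency markers.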

How the data were processed

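SOX6 peaks of EpiSC5 OLs, EpiSC5 OPCs and 129O1 OPCs and H3K27ac peaks of both states and lines were used as the authors deposited them, 1 list per library. Per the submitters' processing notes, the build was mm10 and the tools were bedtools, deepTools, Picard, Bowtie2 2.3.2 and Trim Galore 0.3.1. No source used here names the peak caller or the control. The deposited lists have no header and give positions, a score, the authors' fold enrichment (a ratio), −log10 p and −log10 q. These were used within a list only. The 2 inputs were not used here.

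Genes came from a RefSeq table of GRCm38.p6, without exons. Peaks were matched by 1 bp of overlap, and covered length was summed over gene bodies plus 10 kb, with 0.5 kb added on the log2 scale. Shares have 95% Wilson intervals. No test was possible with 1 library a group, and depth is unknown. Overlap and length functions were checked on simulated peaks. Python 3.11.15, numpy 2.4.6, pandas 2.3.3 and scipy 1.17.1 were used.

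The regions and gene lists were chosen with earlier results of these data known. Genes named are the 10 with the longest OL coverage, the 10 with the longest OPC coverage and none in OLs, the 10 largest gains, those at the strongest peaks, a preset list and list members. The motif CCGGAAG, the sections along genes, Trio and the most confident kept OPC peaks were taken up after values were seen. Alternatives were the overlap rule, q threshold, list length, OPC list, window, scaling, chromosomes, pseudocount and ranking.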

Additional observations from a re-analysis of the deposited data

Results flagged for a closer look

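The OL SOX6 list held 56 peaks on sequences not placed on a chromosome or on the mitochondrial genome, outside the chromosomes compared, against 3 in the EpiSC5 OPC list and 7 in the 129O1 OPC list. Of the 56, 15 lay on Un_GL456383 and 2 on the mitochondrial genome. H3K27ac peaks followed the same order by state, with 55 in EpiSC5 OLs against 10 in EpiSC5 OPCs, and 70 in 129O1 OLs against 17 in 129O1 OPCs. The part of mapping or of input in these peaks was not tested.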

How the results depend on the processing

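Of 68 values under other settings, 36 stayed inside the interval of a share or within 1.5 times a count. The share of EpiSC5 OPC peaks kept was 9.20% by summits within 200 bp, 6.28% at a −log10 q of at least 10, 11.4% with the OPC list cut to the OL length, 9.23% against 129O1 and 8.90% against both OPC lists merged. The share of OL peaks that were shared was 36.2% by summits, 11.7% with the cut OPC list, 53.8% against 129O1 and 55.1% against both. New OL peaks numbered 1298 at −log10 q of at least 10. Genes with SOX6 in both states numbered 1468 in bodies alone, 5203 with 50 kb each side, 1379 at −log10 q of at least 10 and 769 with the cut OPC list. With that cut list 1454 genes were lost, 2767 new and 2922 longer in OLs, so the excess of losses depends on the longer OPC list. Against 129O1 532 genes were new and 1093 longer, and against both lists 489 and 1021. Scaled to equal totals, 3229 genes were longer in OLs. With a pseudocount of 0.1 kb 1269 genes were 2-fold longer and 5297 shorter, and with 1 kb 39 and 775. With at least 50% of the peak inside H3K27ac, the shares were 84.4, 48.1 and 59.0% in OLs and 79.8, 62.4 and 50.2% in OPCs for kept, lost and new peaks.

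Chosen after seeing the data, the 5 long-run windows left out gave 42.6% shared and 46.8% within 1 kb of a start. The 129O1 list cut to the OL length found 25.4% of EpiSC5 OPC peaks, where OLs kept 9.76%. That cut list held only the most confident 129O1 peaks, while the OL list was used whole. Against 129O1, 66 genes were 2-fold longer and 3415 shorter. The causes were not tested. No paired analysis was possible because each group is 1 library. Unknown depth limits every statement of loss: a peak missing from the OL list may be below its threshold.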

Other observations

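A set of 16 OL SOX6 peaks lay beyond the last protein-coding gene of 16 chromosomes, 1 on each. All were new against EpiSC5 OPCs, and neither OPC list held a peak there. Their median −log10 q was 49.0 and their median fold enrichment 3.16, against 10.6 and 5.08 for all OL peaks, and 3 of the 5 most confident new OL peaks are among them.

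MicroRNA genes were looked at separately. Of 919 hairpins in the RefSeq table, 32 had an OL SOX6 peak within 2 kb and 54 an EpiSC5 OPC peak, and 11 had both, among them Mir7b, Mir207 and Mir695. Mir26a-1, Mir125b-1, Mirlet7i and Mir9-2 had an EpiSC5 OPC peak and no OL peak. Mir423, Mir193a and Mir3061 had an OL peak and no EpiSC5 OPC peak.

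Chromosome 2, which carries Frmd4a and Bcas1, held 12.6% of OL peaks and 7.83% of EpiSC5 OPC peaks, and chromosome 17, which carries Qk, held 6.74% and 3.77%.

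The sequence ATGGCGGC, a site of the factor YY1, was searched after the promoter windows had been read. It was in 6.46% of kept and 7.12% of new windows, against 4.39% of lost and 3.08% of all windows.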
